A study of Mus musculus with 4 samples.

Results

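The regions described here are stretches of open chromatin that were found in the first library of each fat depot and in neither of the second libraries. They come from an ATAC-seq study of adipose progenitors, the mesenchymal precursor cells that can become adipocytes, freshly isolated from C57BL/6 mice aged 16 weeks and given no treatment. The study has 4 libraries, SAT 1 and SAT 2 from subcutaneous and VAT 1 and VAT 2 from visceral fat, and the authors called peaks in each of them separately on build mm9 of the mouse genome. The labels give no genotype other than the strain, and they do not say which markers were used to isolate the cells, which animals were pooled, or what libraries of the same replicate number share. Merging overlapping peaks (1 bp or more) gave 83319 regions, 80820 of them on autosomes. The members were chosen by the presence of a peak in SAT 1 and in VAT 1 and its absence from SAT 2 and VAT 2. This held for 7643 autosomal regions, called replicate-1 regions below. They made up 9.46% of all autosomal regions, against 0.657% for the mirror class with peaks only in SAT 2 and VAT 2, and 18.1% of the 42294 autosomal regions with a peak in both SAT 1 and VAT 1.

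In ATAC-seq a transposase inserts adapters where DNA is free of tightly packed nucleosomes, so that clusters of insertions mark promoters, enhancers and other regulatory elements. Promoters tend to be open in many cell types, whereas distal enhancers differ more between cell types and often lie in groups around the genes that set a cell's identity. In fat, progenitors of different depots are known to differ in developmental transcription factors, and these differences persist in isolated cells.

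The membership of a region follows from the lists themselves, so the numbers below describe the regions and carry no p-value. Regions are also not replicates: the whole class rests on 1 subcutaneous and 1 visceral library with peaks and 1 of each without. By the labels, the class crosses the depots, and the lists do not verify the labels. An exchange of VAT 1 with SAT 2, or of SAT 1 with VAT 2, would make these the regions of 1 depot. They would then not be those of 1 replicate number, and from the lists these readings cannot be told apart. The peaks around a gene known for its difference between depots are given at the end. They cannot settle this doubt, since their window was chosen for its regions of this class. The term "replicate-1" is used here as a name for the labels only. The lists held 56823 peaks in SAT 1, 22845 in SAT 2, 56907 in VAT 1 and 62279 in VAT 2. Depth is unknown, since read counts are not part of the lists, and an unlisted site may still have been accessible. SAT 2 excluded few regions that VAT 2 did not also exclude: without it the class would hold 7818 regions, whereas without VAT 2 it would hold 23676. Of the regions with SAT 1, VAT 1 and SAT 2 peaks, 18734 also had a VAT 2 peak and 171 did not. Without SAT 1 or without VAT 1, when 1 library stands for the pair, the numbers would be 14872 and 14249. The class is therefore set mainly by the absence of a VAT 2 peak. Defining markers of the labelled cell type were not analysed here, since no gene annotation of build mm9 was used.

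The replicate-1 regions were short. Their median width was 222 bp (quartiles 175 and 290 bp), with a range from 98 to 1036 bp. Regions with peaks in all 4 libraries (18734 on autosomes, 23.2%) had a median width of 528 bp, and those with peaks in all lists but SAT 2 (15746, 19.5%) had one of 305 bp, but regions merged from more lists span more. The other pairs were alike, with 201 bp for SAT 1 and VAT 2, 206 bp for VAT 1 and VAT 2 and 241 bp for SAT 2 and VAT 2. Exactly 1 peak from each list made up 7544 of the 7643 replicate-1 regions (98.7%). In these, the SAT 1 and VAT 1 peaks shared a median of 131 bp, their centres lay a median of 27.5 bp apart, and 6114 (81.0%) overlapped by at least 50% of each peak. Most of the regions were thus covered to a like extent by both lists, and few rested on contact at peak edges. Width rose with strength, from a median of 198 bp where the weaker peak stood below the percentile of 20 to 349.5 bp where it stood at or above the percentile of 80.

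The second libraries seldom had a peak just beside these regions. The nearest VAT 2 peak lay a median of 6540 bp away and the nearest SAT 2 peak 25707 bp away. A peak of either library within 100 bp was found for 133 regions (1.74%), within 1 kb for 1323 (17.3%), and none within 50 kb for 781 (10.2%). At the edge of the rule, 12 regions had a VAT 2 peak at most 10 bp away. The closest touched a VAT 2 peak without overlap. They were chromosome 5 from 124804015 to 124804275, with a SAT 1 score of 36 and a VAT 1 score of 30, and chromosome 9 from 54555347 to 54555651, with 34 and 74. Just outside the rule, a region on chromosome 15 at 68233254 to 68233569, which scored 72 in SAT 1 and 62 in VAT 1, held a VAT 2 peak with a score of 35 that overlapped by 2 bp. Such borderline cases were few: of 15557 regions with 1 peak from a second library, 7 rested on an overlap of at most 10 bp.

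Within their lists the replicate-1 regions ranked in the lower middle. The score in column 5 of a list is the authors' peak caller score, and it was turned here into a percentile within that list. In SAT 1 the scores of the regions ran from 20 to 341, with a median of 77, which is the percentile of 36.5. In VAT 1 they ran from 21 to 447, with a median of 83, the percentile of 37.9. The weaker of both peaks stood at a median percentile of 25.7, against 17.9 for regions only in SAT 1 and VAT 2 and 17.3 for those only in VAT 1 and VAT 2. Neither list led: the SAT 1 percentile was the higher one in 3634 regions (47.5%), and the median difference was -1.73 percentile points (SAT 1 minus VAT 1). The ranks followed each other with a Spearman's rho of 0.477 across the 7643 regions, which share library and depth and are not independent. For SAT 1 and VAT 2 alone (3974 regions, 4.92% of autosomal regions) rho was 0.185, and for VAT 1 and VAT 2 alone (3733, 4.62%) it was 0.110. For the mirror class, SAT 2 and VAT 2 alone (531), it was 0.321.

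Strong regions were better represented among replicate-1 regions than in the other pairs of long lists. In 1470 of them (19.2%) both peaks stood in the upper 50% of their lists, and in 88 (1.15%) both stood at or above the percentile of 80. None of the regions only in SAT 1 and VAT 2 or only in VAT 1 and VAT 2 reached that level in both lists. In each of their lists, 139 (0.883%) of the regions in all lists but SAT 2 reached it, and 3855 (20.6%) of those in all 4. The number of strong regions depends on the setting. It was 257 when single peaks had to overlap by 50%, 311 in the top 50% of each list and 350 when all lists were cut to equal length. It was 228 without SAT 1, 220 without VAT 1 and 689 without VAT 2.

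Among regions with a SAT 1 and a VAT 1 peak but no SAT 2 peak, the share that lacked a VAT 2 peak fell with strength but did not vanish. It was 43.0% (3062 of 7114) where the weaker peak stood below the percentile of 20 and 26.8% (1457 of 5443) between the percentiles of 40 and 60. At or above the percentile of 80 it was still 12.8% (88 of 688, 95% Clopper-Pearson interval 10.4% to 15.5%). The same question was put to the other pairs of long lists. Among regions with SAT 1 and VAT 2 peaks, the share without a VAT 1 peak was 33.9% in the weakest bin, 8.81% in the middle bin and 0 of 230 in the strongest, which allows a share of up to 1.30% (3 counts of the total) or, by the Clopper-Pearson interval, 1.59%. Among regions with VAT 1 and VAT 2 peaks, the share without a SAT 1 peak was 34.0%, 8.06% and 0 of 224, which allows up to 1.34% or, by that interval, 1.63%. Intervals and limits cover counting error only. The bins are percentiles of different lists, and the difference between pairs was not tested over samples, since each pair exists once.

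**Figure D1:**
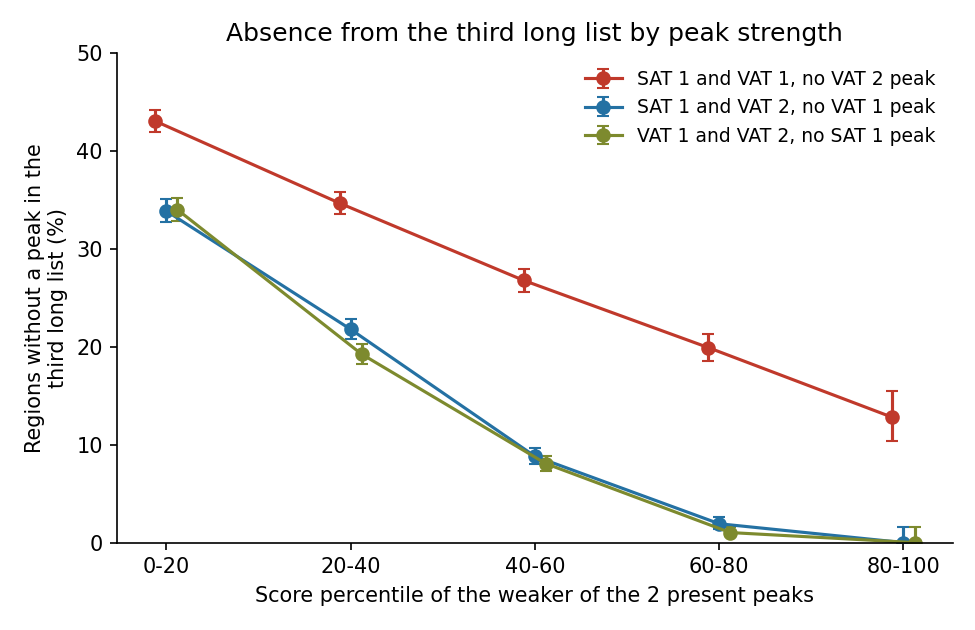
Share of regions without a peak in the remaining long list (y axis, percent) by the score percentile of the weaker of the 2 peaks present (x axis), for regions without a SAT 2 peak. Points are shares and bars 95% Clopper-Pearson intervals, and the SAT 1 and VAT 1 line lies above the others in each bin and ends at 12.8%, where the others are at 0.

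The strongest replicate-1 regions were ordered by the percentile of the weaker peak. The first lay on chromosome 18 at 42834310 to 42834654 with a SAT 1 score of 324 and a VAT 1 score of 367, ranks 3536 and 3421 of their lists. The second, on chromosome 12 at 51069026 to 51069503, scored 315 and 348, and the next, on chromosome 2 at 157151046 to 157151417, scored 305 and 370. None of the first 3 had a peak of a second library within 10 kb. A region on chromosome 1 at 34046446 to 34047087 followed with 316 and 331, and one on chromosome 8 at 116204186 to 116204476 with 292 and 338. The leading 20 spread over 11 chromosomes, with SAT 1 scores from 263 to 341 (median 285.5) and VAT 1 scores from 290 to 447 (median 334.5). The highest VAT 1 score belonged to chromosome 14 at 46795561 to 46795859, where SAT 1 scored 288.

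These leading regions stood well apart from peaks of the second libraries. The nearest such peak lay more than 10 kb away for 17 of the 20, against 39.7% of all replicate-1 regions, with a median of 17175.5 bp. The exceptions included a region on chromosome 17 at 6868675 to 6868988, which lay 69 bp from a VAT 2 peak. At least 1 other replicate-1 region lay within 100 kb of 15 of the 20, close to the 70.1% (5354) over all replicate-1 regions. No leading region lay within 100 kb of another, and the nearest pair was on chromosome 18, where the region at 42714147 to 42714835 (scores 302 and 308) lay 119 kb before the first of all. Another pair was isolated: the regions on chromosome 7 at 84931706 to 84932031 (scores 278 and 350) and on chromosome 3 at 159323708 to 159323971 (266 and 328) had no merged region of any kind within 100 kb. Chromosome 2 held 4 of the 20. It also held 17 of the 88 regions at or above the percentile of 80 in both lists, or 19.3% (11.7% to 29.1%), against 8.39% of all replicate-1 regions. Chromosome 2 is named as the highest of the 19 autosomes, and the interval does not cover that choice. All 19 autosomes held at least 1 of the 88.

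Every autosome held the class, at shares that differed beyond counting error between some chromosomes. Its share of merged regions ran from 8.22% on chromosome 8 (350 of 4258) to 10.6% on chromosome 14 (350 of 3307). Of the regions with SAT 1 and VAT 1 peaks it took 15.5% on chromosome 7 (415 of 2676, interval 14.2% to 16.9%) and 20.2% on chromosome 14 (350 of 1731, interval 18.4% to 22.2%). The class lay farther from common regions than the other pairs of long lists did. Replicate-1 regions lay a median of 27809 bp from the nearest region with peaks in all 4 libraries, whereas regions only in SAT 1 and VAT 2 lay 23276 bp and those only in VAT 1 and VAT 2 lay 21264 bp away. A common region within 1 kb was found for 6.12% of them, against 8.71% and 9.16% for the other pairs. Regions found in VAT 2 alone stood at a like distance, with 28185 bp and 6.17%.

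At a finer scale, replicate-1 regions lay next to each other. Another one lay within 10 kb for 1683 of them (22.0%), against 7.85% and 8.68% for the other, smaller pair classes. The share was 41.8% without VAT 2, 32.3% without SAT 1 and 30.9% without VAT 1, where the class is larger, and 11.4% in the top 50% and 8.43% with equal-length lists, where it is smaller. Of the merged regions directly before or after a replicate-1 region, 15.0% were replicate-1 regions too, which is 1.58 times their share of all autosomal regions. The mirror class of SAT 2 and VAT 2 had a higher ratio, 2.30, from 16 of 1061 neighbours, and regions with peaks in all 4 lists had 1.21. The same ratio was 1.04 for regions only in SAT 1 and VAT 2, 1.17 for those only in VAT 1 and VAT 2 and 1.02 for those in all lists but SAT 2. Single-library regions gave 1.29 for VAT 2, 1.09 for VAT 1 and 1.06 for SAT 1. The ratio for replicate-1 regions lay between 1.25 and 1.91 on the 19 autosomes. It was higher than that of SAT 1 and VAT 2 regions on 18 of the 19 and higher than that of VAT 1 and VAT 2 regions on 15. Without VAT 2, when the class is no longer set by that list, the ratio was 1.05. That class held 23676 regions in place of 7643, and the largest ratio that is possible falls as a class grows. The ratios of classes of unlike size are therefore not like for like. The regions of a class also share libraries, and the ratio was not tested over samples.

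**Figure D2:**
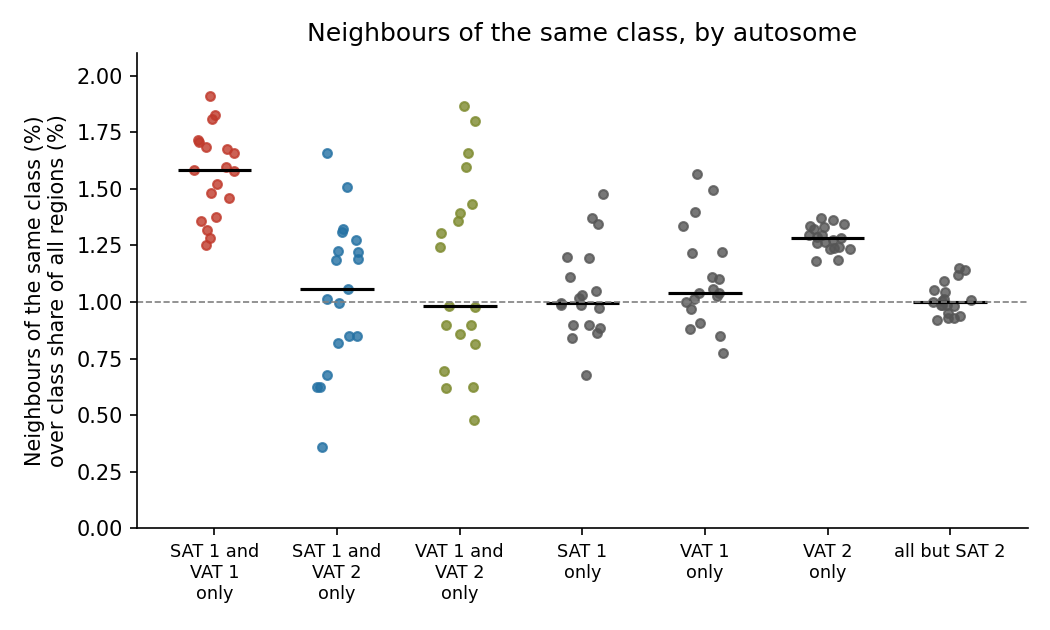
For each class of region, the share of directly neighbouring regions of the same class divided by the share of the class among all regions of the chromosome (y axis, ratio), with 1 point per autosome and a line at the median. Points for regions only in SAT 1 and VAT 1 lie between 1.25 and 1.91, all above the dashed line at a ratio of 1; regions only in SAT 2 and VAT 2 and those in all 4 lists are not drawn.

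The neighbours came from the same libraries in other ways as well. Regions found only in SAT 1 were 1.22 times and those found only in VAT 1 were 1.24 times as frequent beside replicate-1 regions as overall. Regions found only in VAT 2 were 0.775 times and those found only in SAT 2 and VAT 2 were 0.707 times as frequent. Regions with peaks in all 4 libraries stood at 0.829. Clustering also rose with strength: among all regions within 100 kb, 11.3% were replicate-1 regions around the weakest ones (weaker peak below the percentile of 20) and 15.2% around those between the percentiles of 60 and 80. Around the strongest, at or above the percentile of 80, the value was 15.1%.

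Another measure came from the 15746 regions with peaks in all lists but SAT 2, which are not members of the class. These were ranked among themselves in each list, and the VAT 2 rank was subtracted from the mean of the SAT 1 and VAT 1 ranks. The scores come from the same lists that set the class by the absence of VAT 2 peaks, so the measure is not independent of that choice. Within 10 kb of a replicate-1 region the median difference was 3.98 percentile points (2437 regions), so that VAT 2 ranked them lower. Between 10 and 50 kb away it was 0.70, between 50 and 200 kb it was -1.74, and beyond 200 kb it was -6.32 (3009 regions). Near regions exceeded far ones on 19 of 19 autosomes, by 3.69 to 16.8 points. The quartiles within 10 kb were -17.6 and 26.1 points, so single regions varied far more than the medians differed.

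The corresponding measure moved less around the other pairs of long lists. For regions only in SAT 1 and VAT 2, with the VAT 1 rank subtracted, the medians were 0.29 near and -0.14 far, and near exceeded far on 9 of 19 autosomes. For regions only in VAT 1 and VAT 2, with the SAT 1 rank subtracted, they were -0.47 and -1.29, and near exceeded far on 12 of 19. For regions with peaks in all 4 libraries, the mean of the SAT 2 and VAT 2 ranks was subtracted, so the measure is not the same. It was -0.48 near replicate-1 regions and -1.42 far, and higher near on 13 of 19 autosomes. The median VAT 2 rank of these regions was 39.5 near and 55.3 far. In SAT 1 it was 43.2 and 52.7, in VAT 1 43.5 and 52.6, and in SAT 2 44.3 and 54.5. Without SAT 2, where those common regions join the set that was ranked, the difference between near and far was 3.27 points in place of 10.3. It was 7.63 without SAT 1 and 6.75 without VAT 1.

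**Figure D3:**
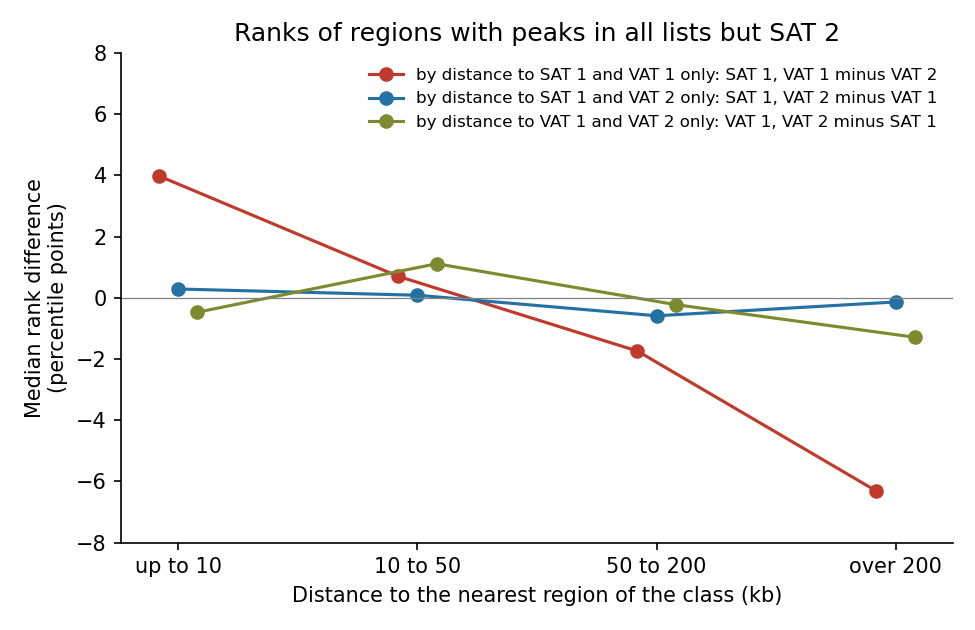
Median rank difference in percentile points (y axis) of the 15746 regions with peaks in all lists but SAT 2, by distance in kb to the nearest region of each pair class (x axis). The line for regions only in SAT 1 and VAT 1 falls from 3.98 within 10 kb to -6.32 beyond 200 kb, and the other lines stay between -1.29 and 1.11.

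The longest runs, in which neighbouring replicate-1 regions lay at most 10 kb apart, held few regions. There were 658 runs of 2 regions, 102 of 3, 14 of 4 and 1 of 5. The run of 5 spanned 29.8 kb on chromosome 3 from 99038030 to 99067843. Its regions scored, in order, 54, 38, 194, 183 and 177 in SAT 1. In VAT 1 they scored 80, 71, 222, 234 and 340. The last 3 were strong in both lists, with SAT 1 percentiles of 78.7, 76.5 and 75.6 and VAT 1 percentiles of 79.8, 81.6 and 92.3. Within that span a single region held a peak of a second library, a VAT 2 peak with a score of 35 at the percentile of 4.37, where SAT 1 scored 71 and VAT 1 scored 80.

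The other leading runs held 4 regions each and were shorter, from 8.25 to 16.4 kb for those named by the rule. The most compact lay on chromosome 18 from 44771716 to 44779961, with SAT 1 scores of 93, 133, 131 and 56 and VAT 1 scores of 79, 174, 89 and 81. On chromosome 4, a run from 8132005 to 8141062 scored up to 180 in SAT 1 and 131 in VAT 1. The run on chromosome 5 from 120318033 to 120327460 opened with a region that scored 196 and 201. In 7 of the 10 leading runs no region of the span had a peak in a second library, and in 6 of them the span held replicate-1 regions alone. Replicate-1 regions lack such peaks by the rule, and the runs were chosen for holding many of them in a short span. These numbers therefore describe the choice and were not compared with other spans. The run on chromosome 11 from 89885343 to 89897168 was the most mixed, with a peak of a second library in 3 of its 7 regions.

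Windows of 1 Mb showed where the class was densest. The median window held 2 replicate-1 regions, and 552 of 2376 windows held none. The window on chromosome 1 from 92 to 93 Mb held the largest number, 23 of its 116 merged regions (19.8%). Next came chromosome 7 from 73 to 74 Mb with 19 of 84, chromosome 12 from 74 to 75 Mb with 18 of 94, and then 3 windows with 17 each: chromosome 13 from 52 to 53 Mb (of 74), chromosome 3 from 99 to 100 Mb (of 38) and chromosome 2 from 125 to 126 Mb (of 89), which stood outside the leading 5 because it had the most merged regions of the 3. The windows of chromosomes 1, 7, 12 and 13 were rich in merged regions. In that order, VAT 2 had peaks in 73 of 116, 53 of 84, 62 of 94 and 47 of 74 of them, against 73.4% of all autosomal regions. The windows were chosen for their 23, 19, 18 and 17 replicate-1 regions, which have no VAT 2 peak by the rule. This comparison is therefore set in part by the choice and shows no lack of VAT 2 peaks among the other regions. No region in these windows was found only in SAT 2 and VAT 2, a class that made up 0.657% of autosomal regions, so that few would fall there. The largest number depends on the setting: it was 8 with equal-length lists, 13 in the top 50%, 37 without SAT 1, 30 without VAT 1 and 52 without VAT 2.

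Ordered by the share of their merged regions (20 or more), the first window was that of chromosome 14 from 10 to 11 Mb, with 10 of 21 (47.6%, interval 25.7% to 70.2%). Chromosome 3 supplied the next 2 windows, from 99 to 100 Mb with 17 of 38 (44.7%, interval 28.6% to 61.7%) and from 131 to 132 Mb with 16 of 41 (39.0%, interval 24.2% to 55.5%). They were followed by chromosome 11 from 99 to 100 Mb and chromosome 3 from 5 to 6 Mb, with 8 of 21 each (38.1%). The median share over the 1525 such windows was 8.77%, and 17 windows reached 30%. Read against the size of the class, dense windows were not particular to it: 21 windows held at least 3 times the autosomal share of replicate-1 regions, and the numbers for SAT 1 with VAT 2 and for VAT 1 with VAT 2 were 16 and 19. The dense windows on chromosomes 14 and 3 had 1 to 5 common regions each. Over the 1525 windows, which share their libraries, the numbers of replicate-1 and common regions followed each other weakly, with a Spearman's rho of 0.174.

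**Figure D4:**
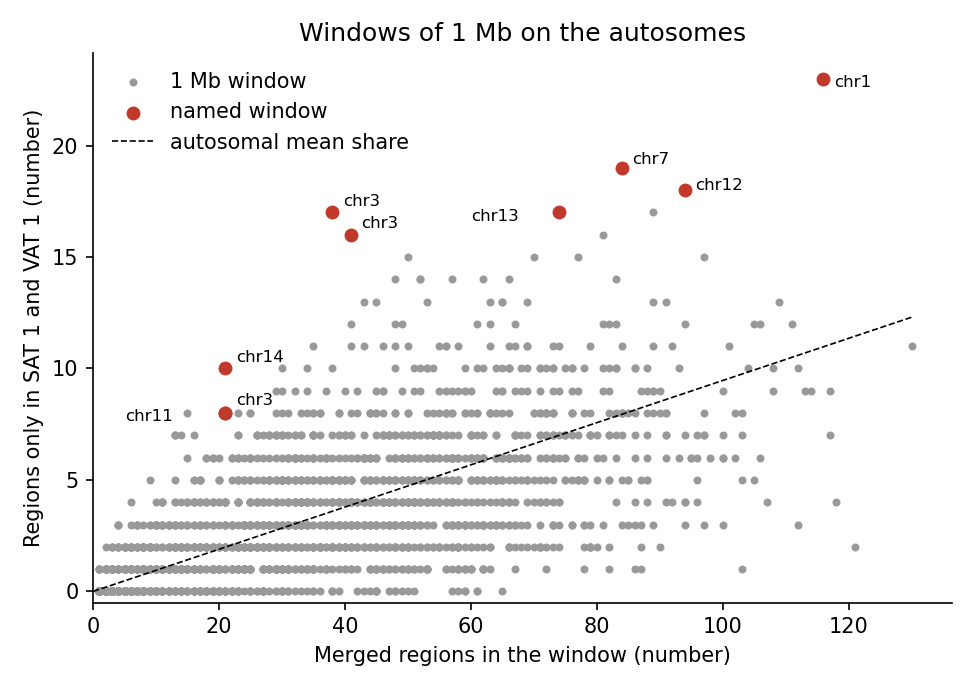
Number of regions only in SAT 1 and VAT 1 (y axis) against the number of merged regions (x axis) in each autosomal window of 1 Mb, with the windows named in the text in red and a dashed line at the autosomal share of 9.46%. The windows on chromosome 3 with 17 of 38 and 16 of 41 and that on chromosome 14 with 10 of 21 stand far above the line; chromosome 11 and the third window of chromosome 3 share a point at 8 of 21.

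The window on chromosome 3 from 99 to 100 Mb was the only one among the leading 5 by number and also by share, and it holds the run of 5. SAT 1 had a peak in 27 of its 38 regions and VAT 1 in 31 of them, whereas VAT 2 had one in 6 and SAT 2 in 3. Over all autosomal regions these libraries held a peak in 65.5%, 66.1%, 73.4% and 25.5% of regions, in the order SAT 1, VAT 1, VAT 2 and SAT 2. The window was chosen for its 17 replicate-1 regions, whose peaks are fixed by the rule, so this comparison is set in part by the choice. Among its other regions SAT 1 had a peak in 10, VAT 1 in 14, VAT 2 in 6 and SAT 2 in 3. Besides the 17 replicate-1 regions, 5 were found only in SAT 1, 9 only in VAT 1, 3 in all lists but SAT 2 and 2 in all 4. Of all autosomal regions these classes made up 7.76%, 8.63%, 19.5% and 23.2%. None was found only in SAT 1 and VAT 2 or only in VAT 1 and VAT 2. Those classes made up 4.92% and 4.62% of autosomal regions, so that few would fall among 38. The adjoining windows had low shares, with 1 of 27 (3.70%) before and 2 of 51 (3.92%) after.

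Away from the run of 5, the strongest replicate-1 regions of this window lay at 99144063 to 99144254, where SAT 1 scored 173 and VAT 1 scored 140, and at 99597582 to 99597837, where they scored 173 and 192. A region between them and the window's end, at 99626663 to 99627160, also had a VAT 2 peak, but a weak one. Its percentiles were 81.8 (SAT 1), 81.9 (VAT 1) and 9.81 (VAT 2). The 2 common regions of the window were strong in each library, and the one at 99966115 to 99966786 stood at percentiles from 81.9 in SAT 2 to 99.2 in VAT 2. The second libraries thus had strong peaks in this window, but before 99626663 they had 1 only, the weak VAT 2 peak within the run of 5.

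**Figure D5:**
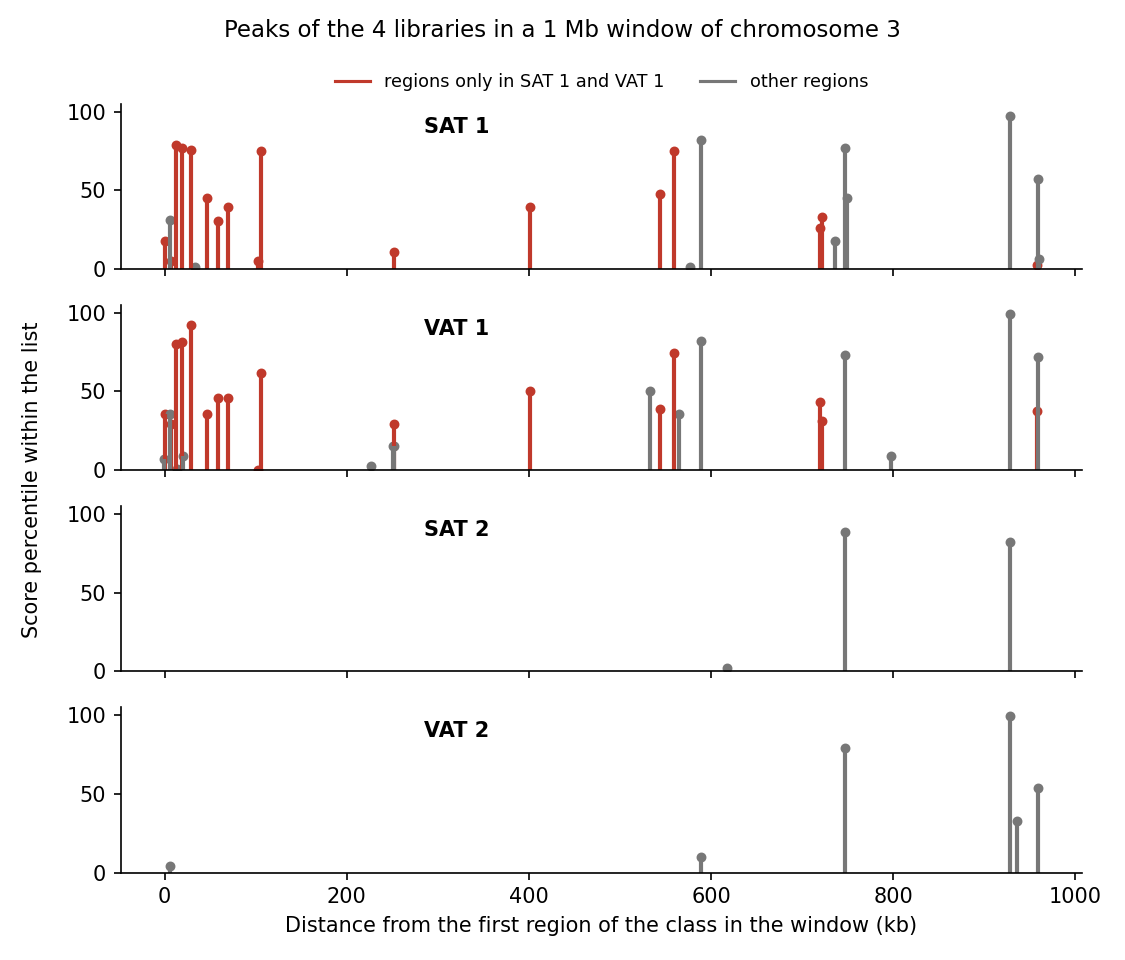
Score percentile within each list (y axis) of the peaks in the chromosome 3 window from 99 to 100 Mb, by distance in kb from its first replicate-1 region (x axis), 1 panel per library, with replicate-1 regions in red and all others in grey. SAT 1 and VAT 1 show 27 and 31 regions and VAT 2 and SAT 2 show 6 and 3, most of them at the right.

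The window on chromosome 3 from 131 to 132 Mb had VAT 2 peaks in 19 and SAT 2 peaks in 6 of its 41 regions, against 31 in each first library. Its 16 replicate-1 regions, for which it was chosen, set this contrast by the rule. Of its other regions, 4 were found only in SAT 1, 2 only in VAT 1 and 5 only in VAT 2. Its strongest replicate-1 region, at 131531542 to 131531811, scored 196 in SAT 1 and 204 in VAT 1. Others at 131281501 to 131281865 (167 and 200) and 131258553 to 131258867 (178 and 172) were of like strength. The replicate-1 regions of this window were spread over 889 kb, and their weaker peaks had a median percentile of 36.3. In the window on chromosome 14 from 10 to 11 Mb, VAT 2 had peaks in 7 and SAT 2 in 1 of 21 regions, of which 10 lack such peaks by the rule. The strongest replicate-1 region of that window, at 10265647 to 10265881, scored 215 and 200. Of its 10 replicate-1 regions, 7 lay between 10236382 and 10297723.

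Gene names could be attached to few of these places. The gene table used here follows assembly GRCm38.p6 and not mm9, so no nearest gene was computed, and the names in this paragraph come from general knowledge of the mm9 genome and were chosen after the values were seen. The chromosome 3 window from 99 to 100 Mb is where Tbx15 lies, which encodes a T-box transcription factor known for higher expression in subcutaneous than in visceral fat progenitors. The peaks of its replicate-1 regions are fixed by the rule and show nothing about the labels. Among its other regions, 9 were found only in VAT 1, labelled visceral, 5 only in SAT 1, 1 only in VAT 2 and 1 only in SAT 2, labelled subcutaneous. Of all autosomal regions these classes made up 8.63%, 7.76%, 19.7% and 0.339%, in the same order. VAT 1 had more peaks there than the other library labelled visceral, but the window was chosen for its replicate-1 regions. Directly beside such regions on all autosomes, regions only in VAT 1 were 1.24 times as frequent as among all autosomal regions. Those only in VAT 2 were 0.775 times as frequent. The doubt about the labels was not settled, be it for VAT 1 and SAT 2 or for SAT 1 and VAT 2. The chromosome 3 window from 131 to 132 Mb is that of Dkk2, which encodes a secreted inhibitor of Wnt signalling, a pathway that restrains adipocyte formation. The window on chromosome 1 from 92 to 93 Mb is that of Ackr3, an atypical receptor for the chemokine CXCL12, and of Col6a3, a chain of type VI collagen, which is abundant in the matrix of fat. The gene table places Tbx15 and Dkk2 on chromosome 3 and Ackr3 and Col6a3 on chromosome 1. Whether any replicate-1 region acts on these genes was not tested.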

How the data were processed

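ATAC-seq had been run on 4 libraries of mouse adipose progenitors, with group and replicate number read from each title. The submitters' processing notes name Bowtie2, MACS2 and build mm9; not given in the sources used here are versions, options, duplicate removal, read shifting and repeat filters. Of each deposited peak list, the score in column 5, a whole number of 20 or more with no stated scale, was used only as a percentile within a list. A more lenient or deeper list holds more peaks, which changes who belongs to a class.

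Peaks were merged at an overlap of 1 bp, and positions are given from 1. Where a region held several peaks of a list, the highest counted. A percentile is the mid-rank of the score in its full list. Named regions were, by rule, the 20 with the highest percentile in the weaker list, the 5 windows of 1 Mb with most regions of the class (ties went to fewer merged regions), the 5 with the largest share among windows of at least 20 regions, and the 10 longest runs with gaps up to 10 kb. The class and these rules were chosen with earlier results of these data known; the neighbour ratio and the ranks by distance were added after seeing the data. Alternatives were 50% reciprocal overlap, only the top 50% of a list, equal-length lists, merging within 500 bp, 200 bp around centres, no second-library peak within 1 kb, and each library left out. Motifs, sequences and gene lists need an mm9 genome and were not analysed here. The code was tested on simulated data and against bedtools 2.31.1, with Python 3.11.15, numpy 2.4.6, pandas 2.3.3 and scipy 1.17.1.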

Additional observations from a re-analysis of the deposited data

How the results depend on the processing

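The number of replicate-1 regions (7643) stayed between 6320 and 9565 with 50% reciprocal overlap, merging within 500 bp, 200 bp around centres or no second-library peak within 1 kb. It was 3802 when only the top 50% of a list was kept and 2492 with lists of 22845 peaks, where absence means only a lower rank; 753 of the 7643 (9.85%) overlapped those 2492. The number with both peaks at or above the percentile of 80 (88) moved to 257 with 50% reciprocal overlap, 311 in the top 50% and 350 with equal-length lists. The median percentile of the weaker peak (25.7) was 31.7 with 50% reciprocal overlap, 61.8 in the top 50%, 69.4 with equal-length lists and 26.2 with no second-library peak within 1 kb. The share with another replicate-1 region within 10 kb (22.0%) was 24.5%, 11.4%, 8.43% and 20.02% in the same settings, and 17.8% when peaks within 500 bp were merged. The largest number in a window (23) moved to 13 in the top 50% and 8 with equal-length lists, and it was 17 on a window grid shifted by 0.5 Mb, a setting added after seeing the data. The neighbour ratio (1.58) was 1.75 with equal-length lists. The rank difference between near and far regions (10.3 points) was 8.33 in the top 50% and 12.5 with equal-length lists. Fewer peaks enter in the top 50% and equal-length settings by construction; other causes were not tested.

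With single libraries left out in turn, there were 7818 to 23676 regions, 98 to 689 strong ones, a median percentile of 25.7 to 33.0, a share within 10 kb of 22.5% to 41.8%, a largest window of 23 to 52, a neighbour ratio of 1.05 to 1.56 and a rank difference of 3.27 to 7.63. The lowest values of the first 5 came without SAT 2 (the median percentile was the same without VAT 1), and the highest values of the first 5 came without VAT 2. The rank difference could not be computed without VAT 2, and the neighbour ratio and rank difference were not computed with 50% reciprocal overlap or the 1 kb margin. No paired analysis was possible because the results come from no test. With no read counts in the lists, no detection limit per library could be set. The SAT 2 peaks excluded few regions that VAT 2 peaks did not also exclude.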

Other observations

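The sex chromosomes were outside the class. On chromosome X, 159 of 2340 merged regions (6.79%, 95% Clopper-Pearson interval 5.81% to 7.89%) had peaks only in SAT 1 and VAT 1, or 13.6% of the 1165 regions with a peak in both (11.7% to 15.8%), a lower share than on each autosome. On chromosome Y it was 7 of 159 regions (4.40%, 1.79% to 8.86%). The mirror class, with peaks only in SAT 2 and VAT 2, held 531 autosomal regions (0.657%), of which 1 had both peaks at or above the percentile of 80. It supplied 71 of the 15286 neighbours of replicate-1 regions (0.464%), which is 0.707 times its autosomal share.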
